A study of Mus musculus with 24 samples.

Results

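Genes that cells are known to switch on soon after a serum or stress signal, with their close relatives, were followed across oxygen and medium in a mouse muscle precursor line. The 10 genes are Fos, Fosb, Fosl1, Fosl2, Jun, Junb, Jund, Egr1, Myc and Atf3, taken by symbol from the 24043 rows of the deposited gene table, and all 10 were found. Their levels were read in 8 RNA-seq libraries of C2C12, an established myoblast line whose cells divide as single cells in serum and fuse into myotubes when serum is withdrawn. The 4 groups were growth medium with 10% fetal bovine serum at 21% oxygen (normoxic growth), differentiation medium with 2% horse serum and an ITS supplement at 21% oxygen (normoxic differentiation), and the same media at 2% oxygen (hypoxic growth and hypoxic differentiation). Each group had a library A and a library B, which the series calls biological replicates without saying whether they were separate cultures, so p-values measure only the spread between these libraries. All groups are the same unmodified cell line, so a group is a culture condition of one line and not a donor or an animal. Growth cultures were kept below confluence, whereas differentiating wells were refed on days that the labels list without giving the day of harvest or the time since the last feed. Levels are FPKM, fragments scaled to transcript length and to the library's mapped fragments, and can be compared between genes on that scale.

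Immediate early genes need no new protein to be transcribed. Serum factors reach them through MAP kinases, which act on serum response factor with its ternary complex partners and on CREB and ATF proteins at the promoter, and their mRNAs usually decay fast. AP-1 is a dimer of a Jun protein with a Fos protein, or of 2 Jun proteins, held together by a leucine zipper; Jun family members also pair with ATF proteins such as ATF3. In myoblasts, Fos, Jun, Egr1 and Myc are best known as growth-promoting factors, and forced Fos, Jun or Myc is known to hold back muscle differentiation.

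Promoter sequence was at hand for 7 of the 10 members (Fos, Fosb, Fosl2, Jun, Junb, Jund and Atf3), from RefSeq on build GRCm38.p6, as windows of 250 bases before and 50 bases from the transcription start on. The 120 bases just before the start are shown for Fos and Atf3, which had the largest rises in normoxic differentiation, and for Jun, whose change there did not pass the test. Capitals mark TGACGT, the core of the cyclic AMP response element bound by CREB and ATF proteins (on the reverse strand in Atf3, so written ACGTCA), the TATA box TATAAA of Fos, and TGACATCA, the AP-1-like site of the Jun promoter. 
Fos, chr12:85473770-85473889, plus strand: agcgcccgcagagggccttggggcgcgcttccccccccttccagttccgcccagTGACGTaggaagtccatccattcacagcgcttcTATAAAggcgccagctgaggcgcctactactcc
Atf3, chr1:191183334-191183453, minus strand: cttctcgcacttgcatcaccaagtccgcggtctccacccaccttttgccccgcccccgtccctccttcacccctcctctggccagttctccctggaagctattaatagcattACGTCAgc
Jun, chr4:95052223-95052342, minus strand: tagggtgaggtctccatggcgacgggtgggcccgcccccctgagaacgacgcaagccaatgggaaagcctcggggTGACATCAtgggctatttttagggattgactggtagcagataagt

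On both strands of the whole windows, TGACGT was found in Fos (from 66 to 61 bases before the start) and Atf3 (from 8 to 3 bases before it) and in no other of the 7, against 7.51% of all 32851 windows. TGACATCA was found only in Jun (45 to 38 bases before the start; 3.62% of all windows). TATAAA was found in Fos (33 to 28 bases before the start) and in Junb (bases 1 to 6 from the start on), against 13.6% of all windows. The full AP-1 site TGACTCA (5.2% of all windows), the complete element TGACGTCA (1.79%, which contains TGACGT), the E-box CACGTG of MYC and MAX (7.15%) and the CArG box of serum response factor (1.63%) were in none of the 7. The core letters of the hypoxia-inducible factor site were in Jund as ACGTG (19.6% of all windows), and in Atf3, Fosb, Junb and Fos as GCGTG (32.4%). These matches describe letters in a short window, and binding was not measured. Sites more than 250 bases before the start were not searched, so a motif absent here, such as the CArG box, may lie further upstream.

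Relative library depth, read from the steps of the lowest values, ran from 0.63 (hypoxic differentiation B) to 1 (hypoxic differentiation A), and absolute depth is unknown. The 5 myotube markers followed the labels in normoxia, where their summed level was 22.5 and 29.3 FPKM in growth and 6050 and 6077 FPKM in differentiation. In hypoxia it was 2.39 and 3.02 FPKM in growth and 14.8 and 8.73 FPKM in differentiation, so the hypoxic differentiation libraries do not carry a myotube profile. The 4 myoblast markers (Myod1, Myf5, Des and Pax7) were higher in differentiation than in growth in normoxia, against their label except for Pax7, with sums of 413.1 and 349.1 FPKM in growth and 711.5 and 689.4 FPKM in differentiation, and summed to 110.8 and 117.9 FPKM in hypoxic growth and 54.4 and 82.3 FPKM in hypoxic differentiation. The 4 fibroblast markers summed to 11.3 and 13.0 FPKM in normoxic growth, 23.5 and 23.1 in normoxic differentiation, 5.61 and 5.70 in hypoxic growth and 2.198 and 1.40 in hypoxic differentiation. Of these, Dpt went from 0.997 and 1.004 FPKM in normoxic growth to 22.7 and 22.1 in normoxic differentiation while Pdgfra went from 10.3 and 11.99 to 0.745 and 0.971, and Thy1 and Lum stayed at or below 0.0364 FPKM. The part of these markers in the members' changes was not tested. Adipocyte markers summed to at most 0.133 FPKM, endothelial markers to at most 0.156 and epithelial markers to at most 0.861 in any library. Of the leukocyte markers, Ptprc and Csf1r stayed at or below 0.167 FPKM and Lyz2 at or below 0.816, its level in normoxic growth B. Cd68 reached 25.8 and 42.8 FPKM in hypoxic differentiation. Replicates differed more than 2-fold at 56 to 71 of the 12389 tested genes in 3 groups and at 613 genes (4.95%) in hypoxic differentiation, 551 of them higher in B. The 20 cell cycle genes summed to 214.5 FPKM in A and 788.9 FPKM in B of that group. Because 5 of the members share that gap, both hypoxic differentiation values are given for every member.

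Tests are limma on log2(FPKM + 1), fitted over all 8 libraries, two-sided, with Benjamini-Hochberg adjusted p-values over 12389 genes and 0.05 as the threshold. Changes are on that scale with their standard error, which understates changes of genes near 1 FPKM. Of the 10 members, 9 were tested, and Fosb missed the minimum of a mean of 1 FPKM in any group. On the deposited scale the median gene moved by -0.20 with the medium in normoxia, by 0.07 with the medium in hypoxia, by -0.14 with hypoxia in growth medium, by 0.15 with hypoxia in differentiation medium, and by 0.27 in the interaction of both, and small changes are to be read against these shifts. These libraries are bulk, so more cells expressing a gene and more RNA per cell cannot be told apart. Shares of all genes called are those of the main fit, and they also changed under the alternative settings. Counts of members or listed genes under an alternative are therefore not to be read against those shares.

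Junb led the members in every group, and the order below it changed with condition. In normoxic growth the order by mean FPKM was Junb (234.6), Jun (61.9), Jund (47.9), Egr1 (46.9), Fosl2 (26.5), Myc (23.0), Fosl1 (19.0), Fos (1.93), Atf3 (1.61) and Fosb (0.640), where only Jund and Egr1 had overlapping libraries as neighbours. In normoxic differentiation Myc moved to the second place (72.6 FPKM) and Atf3 to the fifth (51.8 FPKM), and no neighbours overlapped. In hypoxic growth Fosl2 was second (70.9 FPKM) and Fosl1 (55.5 FPKM) overlapped Jund just above it, and Myc and Egr1 overlapped at 28.3 FPKM each. In hypoxic differentiation Jund was second (106.3 FPKM), and all neighbours from Fosl2 down to Fos overlapped.

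**Figure D1:**
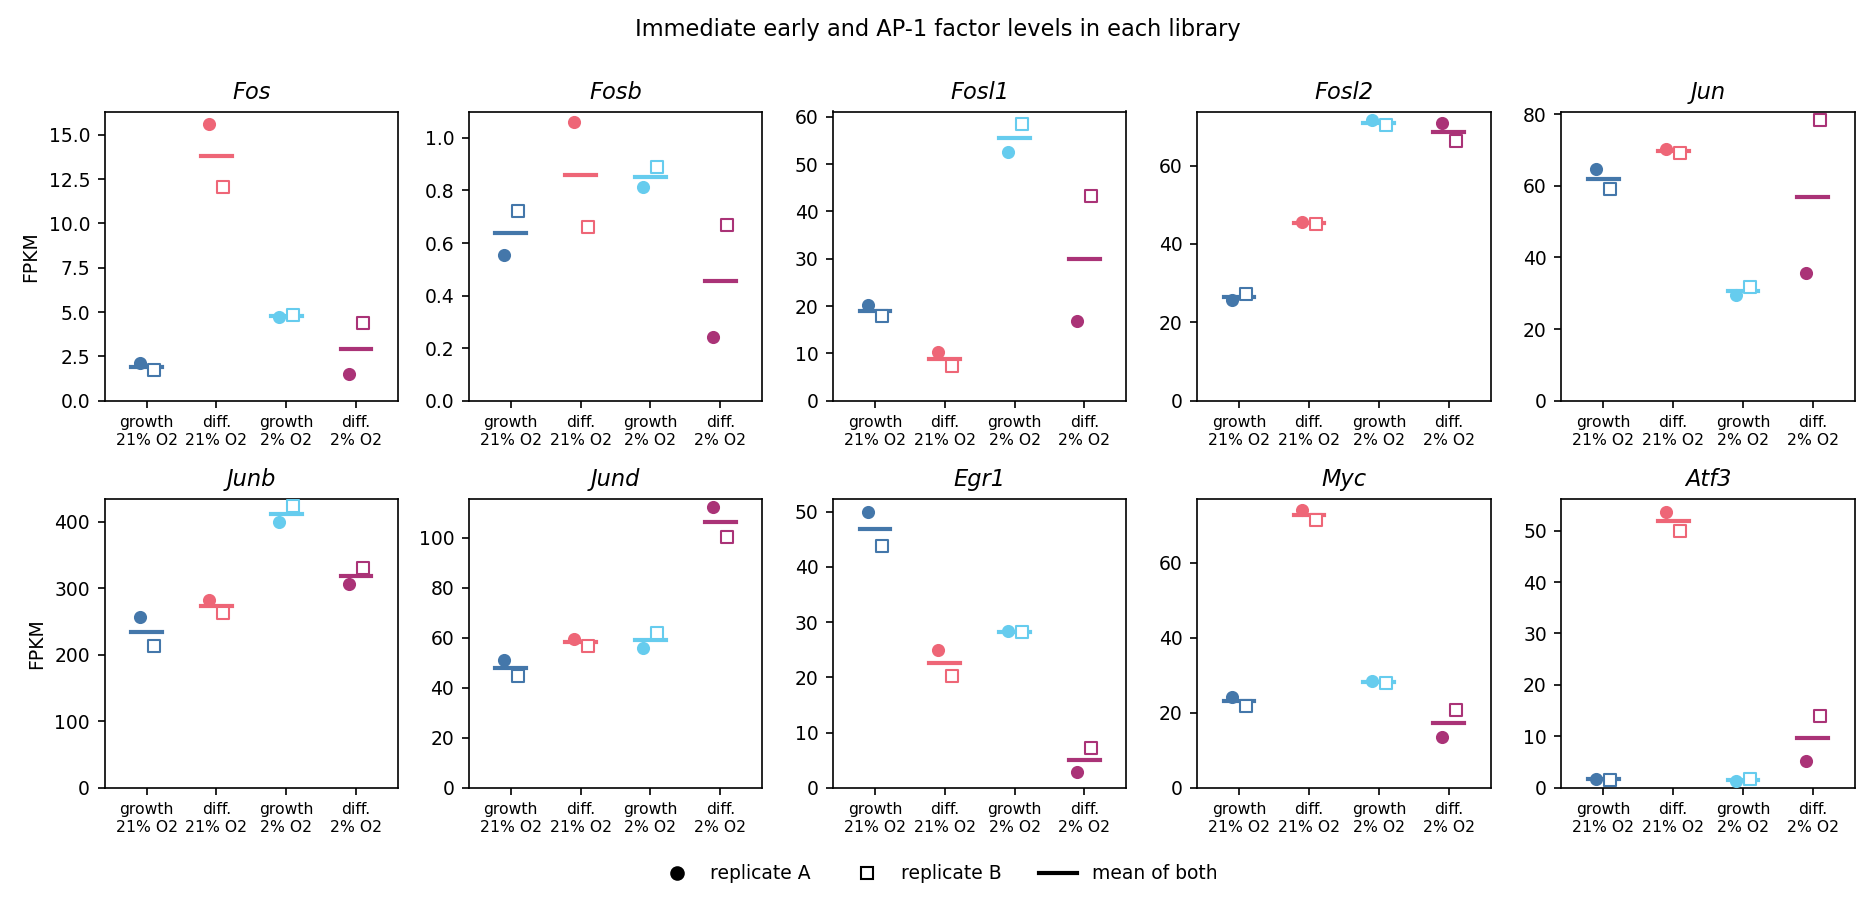
FPKM of each of the 10 members in each of the 8 libraries, with a vertical axis of its own that starts at 0. Filled circles are replicate A, open squares replicate B and bars the mean of both. Fos, Myc and Atf3 peak in normoxic differentiation, Fosl1 and Junb in hypoxic growth, and the replicates of hypoxic differentiation lie apart for Fos, Fosb, Fosl1, Jun, Egr1 and Atf3.

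Fos, the founding member of its family and the usual marker of a fresh serum or stress signal, stood at 2.10 and 1.75 FPKM (libraries A and B) in normoxic growth. It was at 15.6 and 12.04 FPKM in normoxic differentiation, 4.74 and 4.86 FPKM in hypoxic growth and 1.51 and 4.36 FPKM in hypoxic differentiation. Both normoxic differentiation libraries lay above the other 6, and the medium with less serum thus held more Fos mRNA at 21% oxygen. The rise was 7.18-fold (log2 change 2.33 ± 0.33, adjusted p = 0.000855). In differentiation medium Fos was 4.71-fold lower at 2% than at 21% oxygen (-2.01 ± 0.33, adjusted p = 0.00177). The 2.49-fold difference between hypoxic and normoxic growth missed the threshold (0.99 ± 0.33, adjusted p = 0.0524) and passed it under 7 of 16 alternatives, both other scalings among them. The change of medium at 2% oxygen was -0.66 ± 0.33 (adjusted p = 0.157), or -1.21 (adjusted p = 0.00305) without hypoxic differentiation B.

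Fosb, a close paralog of Fos, was near the lower limit in all 8 libraries. It read 0.556 and 0.724 FPKM in normoxic growth, 1.06 and 0.662 in normoxic differentiation, 0.812 and 0.889 in hypoxic growth and 0.241 and 0.667 in hypoxic differentiation. The normoxic groups overlapped, and no contrast passed when Fosb was admitted by dropping the filter (adjusted p between 0.125 and 0.518).

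Fosl1 (FRA1), a late member of the family that lacks the strong activation domain of FOS, was higher at 2% oxygen in both media. Its levels were 20.2 and 17.8 FPKM in normoxic growth, 10.3 and 7.34 in normoxic differentiation, 52.5 and 58.5 in hypoxic growth, and 16.8 and 43.3 in hypoxic differentiation. Hypoxia raised it 2.92-fold in growth medium (1.498 ± 0.39, adjusted p = 0.0222) and 3.40-fold in differentiation medium (1.53 ± 0.39, adjusted p = 0.0125). The first call was lost without any one of the 4 libraries compared (adjusted p = 0.0843 to 0.107). The second was lost without normoxic differentiation B (adjusted p = 0.0876) and when the other groups were left out (adjusted p = 0.0659), and its size was 0.87 without hypoxic differentiation B and 2.19 without A. In differentiation medium at 21% oxygen Fosl1 was 2.15-fold lower than in growth medium (-1.04 ± 0.39, adjusted p = 0.0517), which missed the threshold and passed it under 6 of 16 alternatives. The change of medium at 2% oxygen was -1.01 ± 0.39 (adjusted p = 0.0814) and rested on which hypoxic differentiation library was used, at -1.67 (adjusted p = 0.00172) without B and -0.35 without A.

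Fosl2 (FRA2), the other member of that kind, gave the most even replicates. It read 25.7 and 27.3 FPKM in normoxic growth, 45.63 and 45.004 in normoxic differentiation, 71.5 and 70.2 in hypoxic growth and 71.0 and 66.1 in hypoxic differentiation. All 4 hypoxic libraries lay above all 4 normoxic ones. Hypoxia raised Fosl2 2.67-fold in growth medium (1.39 ± 0.07, adjusted p = 5.98e-05) and 1.51-fold in differentiation medium (0.59 ± 0.07, adjusted p = 0.000435). Differentiation medium raised it 1.71-fold at 21% oxygen (0.75 ± 0.07, adjusted p = 0.000135). At 2% oxygen the media overlapped (-0.05 ± 0.07, adjusted p = 0.636). The 3 Fosl2 calls held under all 16 alternatives.

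Jun, the partner that binds DNA most strongly with FOS and also activates its own promoter, was 64.7 and 59.1 FPKM in normoxic growth and 70.2 and 69.3 in normoxic differentiation. It was 29.6 and 31.8 FPKM in hypoxic growth and 35.6 and 78.3 FPKM in hypoxic differentiation. Hypoxic growth was therefore the one group with both libraries below all others. The fall with hypoxia in growth medium was 2.02-fold (-0.99 ± 0.32, adjusted p = 0.0451) and was lost under 8 of 16 alternatives, among them upper-quartile scaling (-0.81, adjusted p = 0.0555) and the omission of any one growth library (adjusted p = 0.12 to 0.173). Differentiation in normoxia gave 0.17 ± 0.32 (adjusted p = 0.654). The hypoxic differentiation libraries lay on either side of the normoxic ones, so the change with hypoxia in that medium was -0.39 ± 0.32 (adjusted p = 0.307), -0.95 (adjusted p = 0.000206) without B and 0.17 without A. The change of medium at 2% oxygen was 0.77 ± 0.32 (adjusted p = 0.0962), 1.32 (adjusted p = 0.000291) without A and 0.21 without B.

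Junb, which binds the same site with weaker activation than JUN and can restrain it, was at 256.6 and 212.6 FPKM in normoxic growth, 282.9 and 262.7 in normoxic differentiation, 400.1 and 424.3 in hypoxic growth and 306 and 330.8 in hypoxic differentiation. Hypoxia raised it 1.76-fold in growth medium (0.82 ± 0.11, adjusted p = 0.00176), a call kept under all 16 alternatives. So Junb and Jun moved in opposite directions there. On differentiation in hypoxia Junb fell 1.29-fold (-0.37 ± 0.11, adjusted p = 0.0361), a call lost under 9 of 16 alternatives. Differentiation in normoxia (0.22 ± 0.11, adjusted p = 0.118) passed when libraries were scaled by median ratios (0.50, adjusted p = 0.00719) or by upper quartiles (0.31, adjusted p = 0.026) and without normoxic growth A (adjusted p = 0.0286). The difference with oxygen in differentiation medium was also 0.22 ± 0.11 (adjusted p = 0.118).

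Jund, the Jun family member whose mRNA is made steadily in resting cells, was highest in hypoxic differentiation. The values were 51.0 and 44.8 FPKM in normoxic growth, 59.5 and 56.8 in normoxic differentiation, 56.0 and 62.1 in hypoxic growth and 112.4 and 100.2 in hypoxic differentiation. It rose 1.80-fold on differentiation in hypoxia (0.84 ± 0.10, adjusted p = 0.0015) and 1.83-fold with hypoxia in differentiation medium (0.86 ± 0.10, adjusted p = 0.000356), each under all 16 alternatives. Here replicate A was the higher of the pair, unlike Fos, Fosl1, Jun, Egr1 and Atf3. The 1.21-fold rise on differentiation in normoxia (0.28 ± 0.10, adjusted p = 0.0461) was lost under 7 of 16 alternatives. Hypoxia in growth medium gave 0.30 ± 0.10 (adjusted p = 0.0542).

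Atf3, a stress-induced ATF protein that pairs with JUN and mostly represses as a homodimer, had the largest change of all members. It was 1.68 and 1.54 FPKM in normoxic growth, 53.6 and 49.98 in normoxic differentiation, 1.23 and 1.62 in hypoxic growth and 5.23 and 14.0 in hypoxic differentiation. The differentiation libraries lay above the growth libraries at both oxygen levels. The rise was 32.2-fold at 21% oxygen (4.34 ± 0.37, adjusted p = 7.85e-05) and 6.76-fold at 2% oxygen (2.001 ± 0.37, adjusted p = 0.00648). The second call was lost when the other groups were left out (adjusted p = 0.0598), and its size was 1.37 without hypoxic differentiation B and 2.64 without A. In differentiation medium Atf3 was 5.38-fold lower at 2% oxygen (-2.45 ± 0.37, adjusted p = 0.00111). In growth medium the oxygen groups overlapped (-0.11 ± 0.37, adjusted p = 0.838).

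Egr1, a zinc finger factor driven by several serum response elements, was highest in normoxic growth and lowest in hypoxic differentiation. It was 50.01 and 43.7 FPKM in normoxic growth, 25.0 and 20.3 in normoxic differentiation, 28.3 and 28.2 in hypoxic growth and 2.84 and 7.12 in hypoxic differentiation. Fos and Egr1, which share upstream kinases, thus differed in normoxic differentiation, where Fos was at its highest and Egr1 below both growth groups. Egr1 fell 5.67-fold on differentiation in hypoxia (-2.39 ± 0.32, adjusted p = 0.00208) and 4.55-fold with hypoxia in differentiation medium (-2.08 ± 0.32, adjusted p = 0.00125), each under all 16 alternatives. Differentiation in normoxia lowered it 2.07-fold (-1.02 ± 0.32, adjusted p = 0.027), and leaving out any of the 4 libraries compared ended that call (adjusted p = 0.0718 to 0.144). The 1.66-fold difference with hypoxia in growth medium missed the threshold (-0.71 ± 0.32, adjusted p = 0.121) and passed it without either hypoxic differentiation library (adjusted p = 0.00358 and 0.00362).

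Myc, a bHLH zipper factor that binds with MAX and drives ribosome synthesis and growth, rose on differentiation at 21% oxygen. It was 24.2 and 21.8 FPKM in normoxic growth, 74.0 and 71.2 in normoxic differentiation, 28.6 and 27.9 in hypoxic growth and 13.6 and 20.7 in hypoxic differentiation. The normoxic differentiation libraries were the highest and the hypoxic differentiation libraries the lowest of the 8. The rise was 3.16-fold (1.62 ± 0.18, adjusted p = 0.000242). In the same libraries 15 of 20 cell cycle genes fell (list median -2.19), where 41% of all genes were called lower. Far fewer of the 20 were called without any one of the 4 normoxic libraries. At 2% oxygen the change of medium lowered Myc 1.65-fold (-0.72 ± 0.18, adjusted p = 0.0189), a call lost without either hypoxic growth library (adjusted p = 0.0926 and 0.0861) and when the other groups were left out (adjusted p = 0.0934), and its size was -0.43 without hypoxic differentiation A. In differentiation medium Myc was 4.23-fold lower at 2% oxygen (-2.05 ± 0.18, adjusted p = 8.35e-05). In growth medium the difference was 0.29 ± 0.18 (adjusted p = 0.235).

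**Figure D2:**
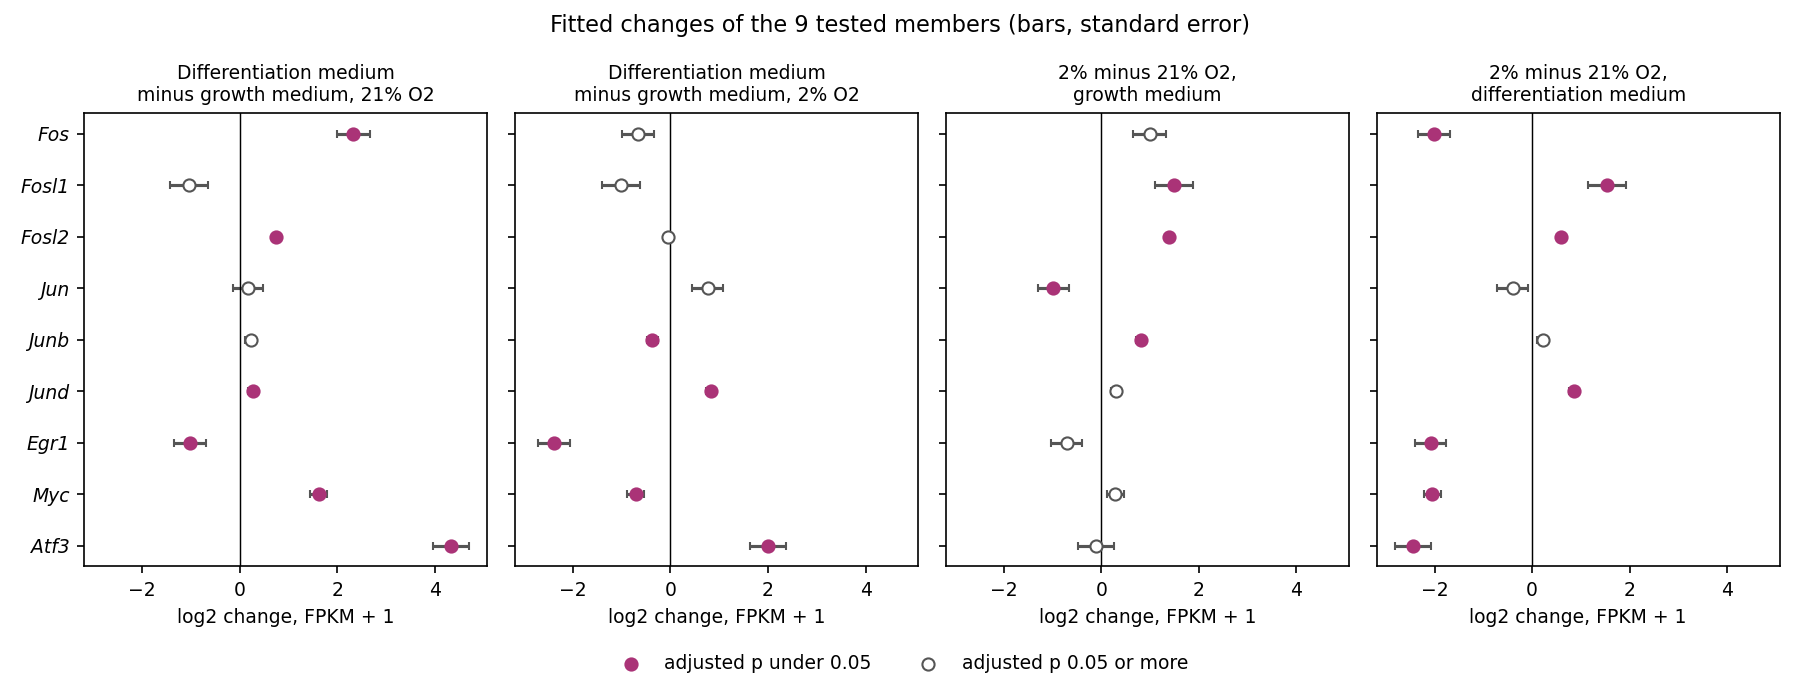
Fitted log2 changes of the 9 tested members on the log2(FPKM + 1) scale in 4 comparisons, with bars for the standard error. Filled points have an adjusted p under 0.05. Atf3, Fos and Myc lie right of 0 in the first panel and left of 0 in the last, while Fosl1, Fosl2 and Jund lie right of 0 in the last.

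The first comparison, the response to differentiation medium at 21% oxygen, gave calls for 6 of the 9 tested members. Fos, Fosl2, Jund, Myc and Atf3 rose and Egr1 fell. Over all 12389 genes 66.5% were called, 25.5% higher and 41% lower, so 6 of 9 is close to the background share. The libraries did not overlap for any of the 9, as for 87% of all genes. Higher genes made up 38.4% of all calls as deposited and 53.6% with median-ratio size factors.

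At 2% oxygen the same change of medium gave calls for 5 of 9 members against 40.9% of all genes (23.3% higher, 17.6% lower; libraries apart for 70.3%). Jund and Atf3 rose and Junb, Egr1 and Myc fell. Higher genes made up 56.9% of all calls and 44.3% with upper-quartile factors. The members' count was 3 without either hypoxic growth library, 2 with only the libraries compared, and up to 7 in the other single omissions.

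The response to hypoxia in growth medium gave 4 of 9 members against 41.4% of all genes (13.5% higher, 28% lower; libraries apart for 77.2%). Fosl1, Fosl2 and Junb rose and Jun fell. The members' count was lower without any one of the 4 libraries compared and higher without either library of hypoxic differentiation. In the latter Fos, Jund and Myc were added as higher and Egr1 as lower. The count over all genes moved the same way under these omissions. Higher genes made up 32.6% of all calls, 43.4% with median-ratio size factors and 50% with upper-quartile factors.

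In differentiation medium 7 of 9 members differed between oxygen levels, against 65.2% of all genes (37.5% higher, 27.7% lower; libraries apart for 83.1%). Fosl1, Fosl2 and Jund were higher at 2% oxygen, and Fos, Egr1, Myc and Atf3 were lower. Higher genes made up 57.5% of all calls and 46.5% with median-ratio size factors. The comparison shares its normoxic libraries with the first one, and its hypoxic libraries with the second.

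Whether oxygen altered the response to the medium was tested by the interaction, the change at 2% oxygen minus that at 21%. It passed for 7 of 9 members against 54.1% of all genes (35.4% positive, 18.7% negative). It was negative for Fos (-2.99 ± 0.47, adjusted p = 0.00212), Atf3 (-2.34 ± 0.52, adjusted p = 0.00898), Myc (-2.34 ± 0.25, adjusted p = 0.000417), Egr1 (-1.37 ± 0.45, adjusted p = 0.0398), Fosl2 (-0.80 ± 0.10, adjusted p = 0.000886) and Junb (-0.59 ± 0.16, adjusted p = 0.0176). It was positive for Jund (0.56 ± 0.14, adjusted p = 0.0155), which did not pass after scaling by median ratios (0.24, adjusted p = 0.31) or by upper quartiles (0.34, adjusted p = 0.121), nor without normoxic differentiation B (adjusted p = 0.0632) or hypoxic growth A (adjusted p = 0.0636). Positive interactions made up 65.5% of all calls, 47.3% with median-ratio size factors and 54.1% with upper-quartile factors. The Egr1 call was lost under 8 of 15 alternatives, and its size was -0.83 without hypoxic differentiation A and -1.91 without B. The Junb call was lost without normoxic differentiation A (adjusted p = 0.0722) or hypoxic growth B (adjusted p = 0.0694). Fosl1 gave 0.03 ± 0.56 (adjusted p = 0.967) and Jun 0.59 ± 0.45 (adjusted p = 0.297). Jun passed at 1.15 (adjusted p = 0.000359) without hypoxic differentiation A. Fosl1 gave 0.69 (adjusted p = 0.0496) without that library and -0.63 (adjusted p = 0.071) without B.

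Within the Fos family, by FPKM, Fos held 21.5% and 18.5% of the summed Fos family level in normoxic differentiation and 1.68% to 4.33% in the other 6 libraries. Fosl1 held 14.2% and 11.3% in normoxic differentiation, 41.6% and 37.4% in normoxic growth, and 40.5% and 43.5% in hypoxic growth. In hypoxic differentiation the Fosl1 share was 18.7% in A and 37.8% in B. Fosl2 held the largest share in all 8 libraries, between 52.2% and 79.3%. Junb held 64.9% to 82.4% of the Jun family level in all libraries. Jun held 17.0% to 18.7% of it in the normoxic libraries and 6.09% and 6.14% in hypoxic growth. The summed Fos family level was 47.7 and 48.5 FPKM in normoxic growth and 129.6 and 134.5 FPKM in hypoxic growth, with no overlap. These shares are mRNA levels and say nothing of the dimers formed.

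**Figure D3:**
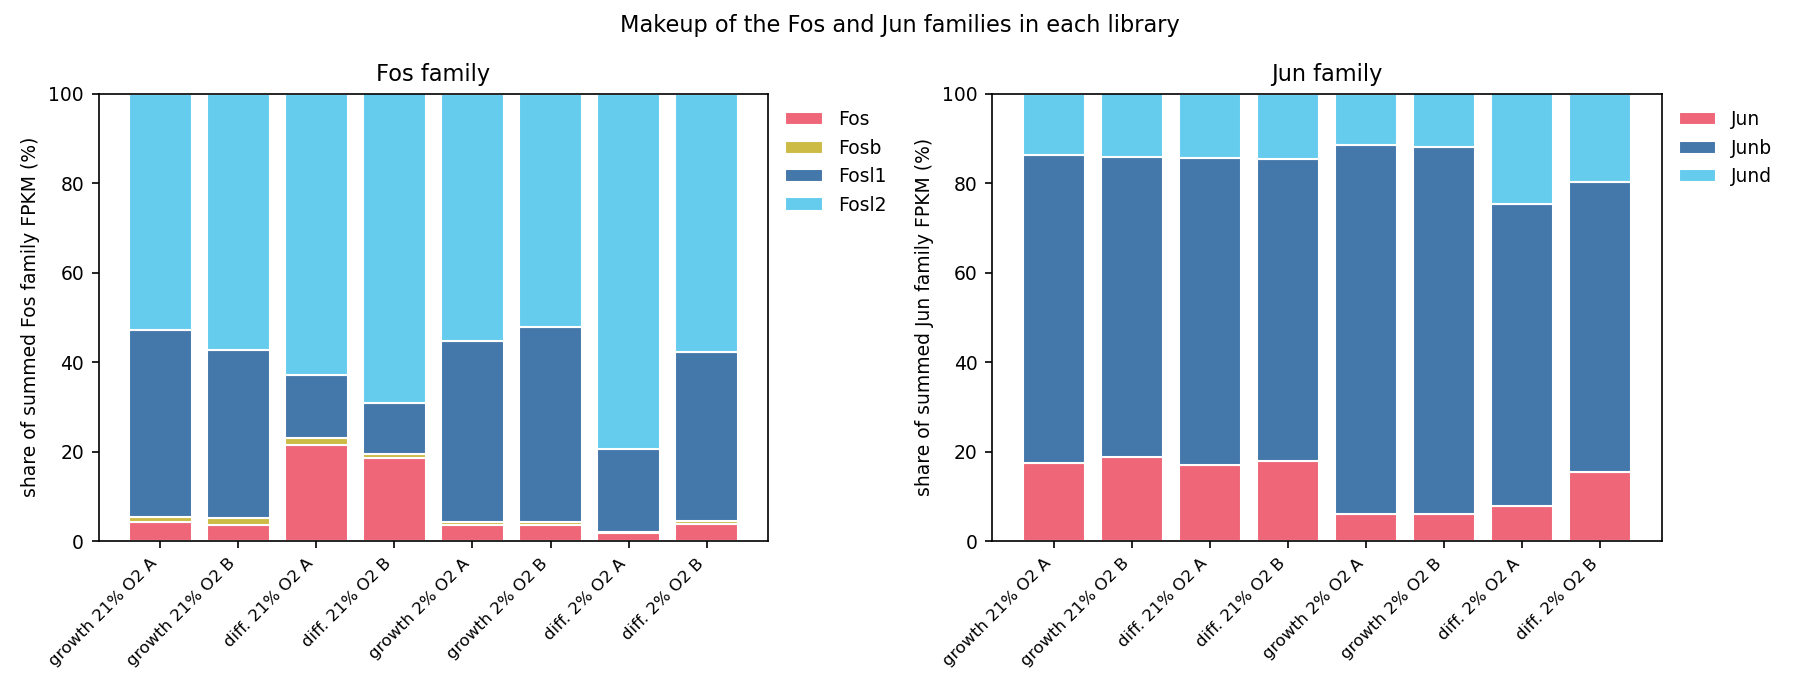
Share of each gene in the summed FPKM of the Fos family (left) and the Jun family (right), in percent, for each library. The Fos share is 21.5% and 18.5% in normoxic differentiation, and the Jun share is lowest in hypoxic growth at 6.09% and 6.14%.

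The gap between the hypoxic differentiation replicates divided the members. Replicate B was higher by a log2 difference of 1.32 for Fosl1, 1.27 for Atf3, 1.12 for Jun, 1.10 for Fos and 1.08 for Egr1, each exceeded by 2.64% to 3.91% of tested genes. The difference was 0.58 for Myc, exceeded by 11.1% of genes. It was 0.11 for Junb, -0.10 for Fosl2 and -0.16 for Jund, where the median gene stood at 0.09. In the other 3 groups no tested member differed more than 2-fold between replicates. The 20 cell cycle genes had a median log2(FPKM + 1) of 2.57 in A and 4.95 in B, and their part in the members' gap was not tested.

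**Figure D4:**
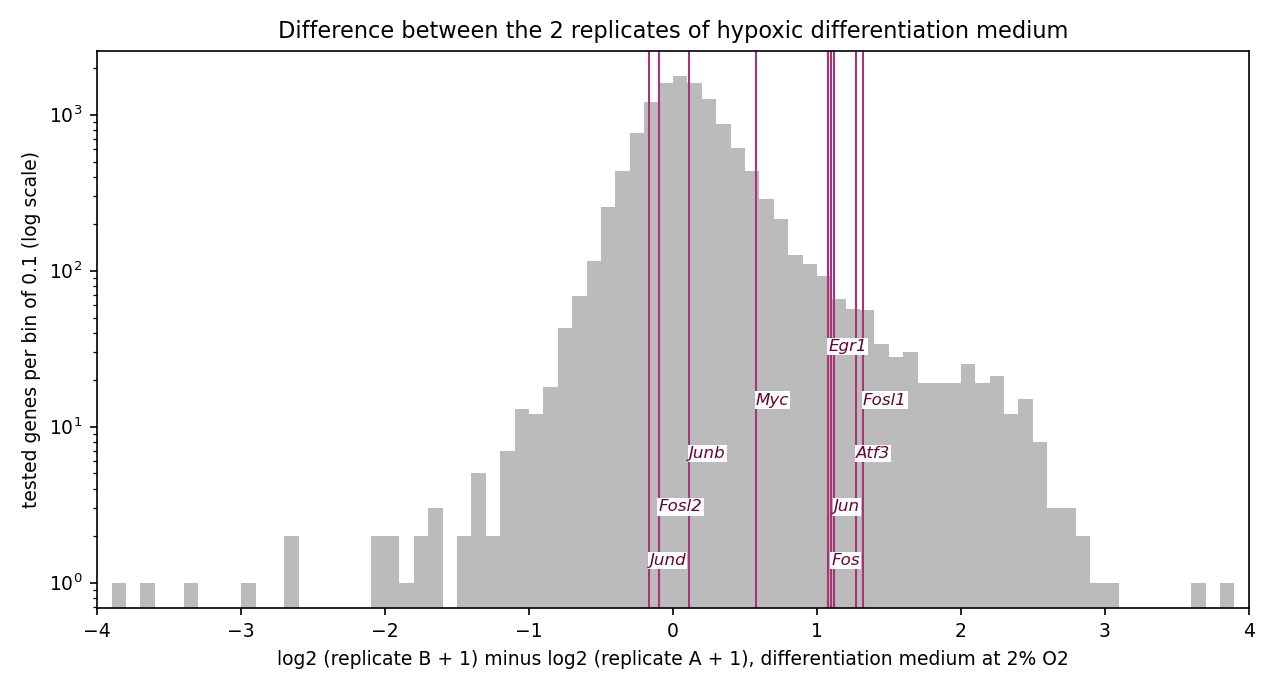
Histogram of the log2 difference between replicate B and replicate A of hypoxic differentiation over the tested genes, with a log count axis and vertical lines for the 9 tested members. The 36 genes beyond 4 on either side are not drawn. Egr1, Fos, Jun, Atf3 and Fosl1 lie between 1.08 and 1.32, in the right tail, and Jund, Fosl2 and Junb lie near the median.

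Other immediate early genes were read from a list of 35, of which 34 were tested. On differentiation in normoxia 14 rose and 6 fell, against 66.5% of all genes called (list median 0.23; all genes -0.20). The count was 11 to 13 without normoxic growth B or either normoxic differentiation library. On the log2(FPKM + 1) scale the largest changes were those of Plk2, Ptgs2 and Nr4a3. Plk2, a growth-arrest kinase, went from 18.7 and 18.3 to 203.8 and 204 FPKM (log2 change 3.40). Ptgs2, the inducible cyclooxygenase, went from 3.43 and 3.86 to 37.7 and 35.0 FPKM (3.01). Nr4a3, an orphan nuclear receptor, went from 0.111 and 0.0285 to 7.40 and 7.25 FPKM (2.96). That order depends on the pseudocount of 1. By the ratio of mean FPKM Nr4a3 rose 105.1-fold from its low level in growth, Plk2 11.03-fold and Ptgs2 9.98-fold. Nr4a1, a relative of Nr4a3, rose from 3.69 and 2.78 to 33.8 and 27.4 FPKM (2.90). Klf4 rose from 10.4 and 10.3 to 54.1 and 48.4 FPKM (2.202). Ier2 rose by 0.95, while Egr2, a paralog of Egr1, fell by 0.69.

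At 2% oxygen the change of medium gave 2 higher and 10 lower of 34 (list median -0.22, all genes 0.07), against 40.9% of all genes called. That count was 21, 10 of them higher, without hypoxic differentiation A, and 23, 2 of them higher, without B. Egr2 fell by 1.85 (to 0.125 and 0.345 FPKM in hypoxic differentiation A and B), Errfi1, a feedback inhibitor of the EGF receptor, by 1.35 (to 7.45 and 12.2 FPKM), and Ier2 by 1.18 (to 23.6 and 31.8 FPKM). Plk2 rose by 1.32 (to 43.8 and 88.6 FPKM), or by 0.82 without hypoxic differentiation B. The Plk2 call was lost without either hypoxic growth library (adjusted p = 0.0629 and 0.0638) and when the other groups were left out (adjusted p = 0.078). With hypoxia in growth medium the largest changes were those of Ier3, an anti-apoptotic early gene (52.5 and 42.0 to 260.7 and 264.5 FPKM, 2.46), Klf4 (2.16) and Ptgs2 (1.83). There 7 of the 34 rose and 5 fell, against 41.4% of all genes called. This count was 23 without either hypoxic differentiation library, 21 with only the libraries compared, and 7 without hypoxic growth A.

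Of the 34, in differentiation medium, 4 were higher and 19 lower at 2% oxygen (list median -0.76, all genes 0.15). Over all genes 65.2% were called, 37.5% higher and 27.7% lower. On the log2(FPKM + 1) scale the largest differences were those of Nr4a1 (-2.81; 2.05 and 5.54 FPKM in hypoxic differentiation A and B), Nr4a3 (-2.79; 0.128 and 0.284 FPKM) and the kinase gene Sgk1 (-2.44; 5.22 and 9.86 FPKM), and Ier2 was lower by a log2 change of -2.16. That order depends on the pseudocount of 1. By the ratio of mean FPKM Nr4a3 was 35.6-fold lower, Egr2 10.1-fold, Nr4a1 8.05-fold, Dusp6 6.58-fold and Sgk1 5.78-fold. The interaction was negative for 12 and positive for 0 of 34, against 54.1% of all genes called (18.7% negative). The largest on the log2(FPKM + 1) scale were those of Nfil3 (-3.19), Ptgs2 (-3.17) and Ctgf (-3.13), with Nr4a1 at -3.04 and Klf4 at -2.52. In hypoxic differentiation A and B, Nfil3 read 25.6 and 25.9 FPKM, Ptgs2 9.06 and 20.7, Ctgf 2.06 and 9.98, and Klf4 42.3 and 37.1. Without hypoxic differentiation A the interaction was called for 21 genes, 7 of them positive, and without B for 23, all negative. Dusp1, a phosphatase that switches off MAP kinases, and Srf, which encodes serum response factor, passed in none of the 5 contrasts. Srf stood at 22.2 and 18.5 FPKM in normoxic growth, 17.5 and 17.8 in normoxic differentiation, 10.7 in both hypoxic growth libraries, and 6.75 and 15.3 in hypoxic differentiation. Its difference with hypoxia in growth medium missed the threshold of limma's test (-0.86 ± 0.31, adjusted p = 0.0655).

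Of the other bZIP partners and EGR co-repressors, 11 of 15 were tested. On differentiation in normoxia 2 rose and 5 fell, where 66.5% of all genes were called, with Maf at -1.91, the EGR co-repressor gene Nab2 at -1.50 and the small Maf gene Mafk at 1.42. Nab2 went from 63.2 and 52.9 to 20.7 and 19.0 FPKM. With hypoxia in growth medium 2 rose and 1 fell, against 41.4% of all genes called. These were Maff, another small Maf (12.3 and 13.2 to 97.7 and 101.7 FPKM, 2.87), Atf7 (1.05) and Maf (-2.20). The Atf7 call was lost without hypoxic growth B (adjusted p = 0.0586). The count was 5 without either hypoxic differentiation library and with upper-quartile factors. In differentiation medium 4 were higher and 1 lower at 2% oxygen, where 65.2% of all genes were called. The lower gene was Mafk (-1.23; 7.49 and 13.9 FPKM in hypoxic differentiation A and B), and the higher ones were Maff (1.0001; 42.3 and 46.6 FPKM), Jdp2 (0.98; 84.4 and 67.6 FPKM), Atf7 (0.68; 14.7 and 11.7 FPKM) and Nab2 (0.60; 34.5 and 27.1 FPKM). The count was 3 with median-ratio size factors and without normoxic differentiation B. The mRNAs of Batf, Batf2 and Batf3 stayed at or below 1.15 FPKM in every library.

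Among genes that feed signals to these factors, 16 were tested. On differentiation in normoxia 4 rose and 7 fell, near the 66.5% called over all genes, with Mapk3 (ERK1) lower by a log2 change of -2.05 (172.6 and 145.9 to 38.2 and 36.7 FPKM) and the ternary complex factor gene Elk3 at -2.001. Fbxw7, part of a ligase that degrades MYC and JUN, rose from 3.08 and 3.13 to 8.49 and 8.10 FPKM (1.18). At 2% oxygen it rose by 0.71 (to 4.37 and 7.92 FPKM), a call lost under 8 of 16 alternatives, and its size was 1.08 without hypoxic differentiation A and 0.35 without B. With hypoxia in growth medium 3 rose and 4 fell, against 41.4% of all genes called. The largest change was that of Map2k1 (MEK1) at 1.46 (37.3 and 38.0 to 106.7 and 104.5 FPKM).

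The MYC network holds MAX, the partner of MYC, and the MXD and MNT proteins that compete for it; 10 of its 12 written symbols were tested. Mycn stayed at or below 0.0854 FPKM in every library, so Myc and Mycl were the MYC genes with signal. On differentiation in normoxia 2 rose and 5 fell, against 66.5% of all genes called. Mxd3 fell from 24.2 and 20.2 to 1.56 and 1.15 FPKM (-3.30), Mxd4 from 70.6 and 67.6 to 10.7 and 11.2 FPKM (-2.56) and Max from 29.7 and 26.7 to 18.2 and 16.5 FPKM (-0.67), while Mxd1 rose by 1.04. Mxd3, Mxd4 and Max thus went against Myc. With hypoxia Mxi1, an antagonist of MYC, rose by 1.99 in growth medium and 2.504 in differentiation medium. Mycl fell by 1.98 in growth medium (7.39 and 6.15 to 1.03 and 0.903 FPKM). In differentiation medium it fell by 2.32 (11.8 and 11.5 to 1.43 and 1.63 FPKM). Between oxygen levels in differentiation medium, 5 genes of the network were higher and 2 lower at 2%, against 65.2% of all genes called. The largest changes on the log2(FPKM + 1) scale were those of Mxd4 (2.83), Mxi1 and Mxd3 (2.45). In hypoxic differentiation A and B, Mxd4 read 88.2 and 79.5 FPKM and Mxi1 50.5 and 37.1 FPKM. Max was higher by 0.79 (26.9 and 35.1 FPKM). The Mxd3 values there were 4.69 and 27.9 FPKM, its size was 3.62 without hypoxic differentiation A and 1.28 without B, and its call was lost without either normoxic differentiation library (adjusted p = 0.0641 and 0.0852) and when the other groups were left out (adjusted p = 0.0747).

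The 20 listed targets of MYC, mostly ribosome assembly and nucleolar genes, were all tested. On differentiation in normoxia 16 rose and 2 fell, against 66.5% of all genes called (list median 1.16; all genes -0.20), in the comparison where Myc rose 3.16-fold. The largest rises were in Odc1, the first enzyme of polyamine synthesis (21.5 and 22.6 to 85.0 and 87.0 FPKM, 1.91), Nop58 (28.1 and 29.8 to 109.6 and 112 FPKM, 1.90) and Wdr43 (10.6 and 12.9 to 40.2 and 43.8 FPKM, 1.76). The Odc1 call was lost without either normoxic differentiation library (adjusted p = 0.0507 and 0.0545). The 2 that fell were Cdk4, a cell cycle kinase, and Npm1, named here after their values were seen. At 2% oxygen in differentiation medium 2 targets were higher and 16 lower than at 21% (list median -1.10). Over all genes 37.5% were called higher and 27.7% lower. The largest changes were those of Polr1b (-2.15, at 1.75 and 3.34 FPKM in hypoxic differentiation A and B), Nop16 (-2.09, at 7.10 and 9.71 FPKM) and Nop58 (-1.80, at 22.3 and 43.4 FPKM).

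The MYC targets and Myc did not move together in the hypoxic change of medium. There Myc fell, while 8 targets rose and 2 fell (list median 0.54, all genes 0.07), against 40.9% of all genes called. The targets' median log2(FPKM + 1) was 3.997 and 4.113 in hypoxic growth, and 4.462 and 4.946 in hypoxic differentiation A and B. Myc was also higher in B than in A of hypoxic differentiation (20.7 and 13.6 FPKM). That target count was 17, 15 of them higher, without hypoxic differentiation A. It was 2 or 3 without either hypoxic growth library and with only the libraries compared, and 5 or 6 without the filter or any one normoxic library. With hypoxia in growth medium 1 rose and 5 fell (median -0.46), against 41.4% of all genes called, with Bop1 at -1.03. The count there was 16 without either hypoxic differentiation library, and 14 and 15 with only the libraries compared and with array weights. It was 2 or 3 without normoxic growth A or either hypoxic growth library. In the interaction Polr1b stood at -1.80, Wdr43 at -1.56 (10.9 and 14.4 FPKM in hypoxic differentiation A and B) and Cdk4 at 1.92 (230.3 and 234.9 FPKM). The count of targets passing the interaction was 10, 9 of them negative, against 54.1% of all genes called. It was 6 without normoxic growth B, normoxic differentiation B or either hypoxic growth library, and 16 without hypoxic differentiation B.

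Of 14 known AP-1 targets, 10 were tested, and on differentiation in normoxia 2 rose and 4 fell, near the 66.5% called over all genes (25.5% higher, 41% lower). Osteopontin (Spp1) fell from 1560 and 1580 to 156.4 and 154.5 FPKM (-3.33), while the cytokine genes Il6 and Lif rose by 2.24 and 1.32. The matrix protease genes Mmp3, Mmp9, Mmp10 and Mmp13 stayed at or below 0.877 FPKM in every library.

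**Figure D5:**
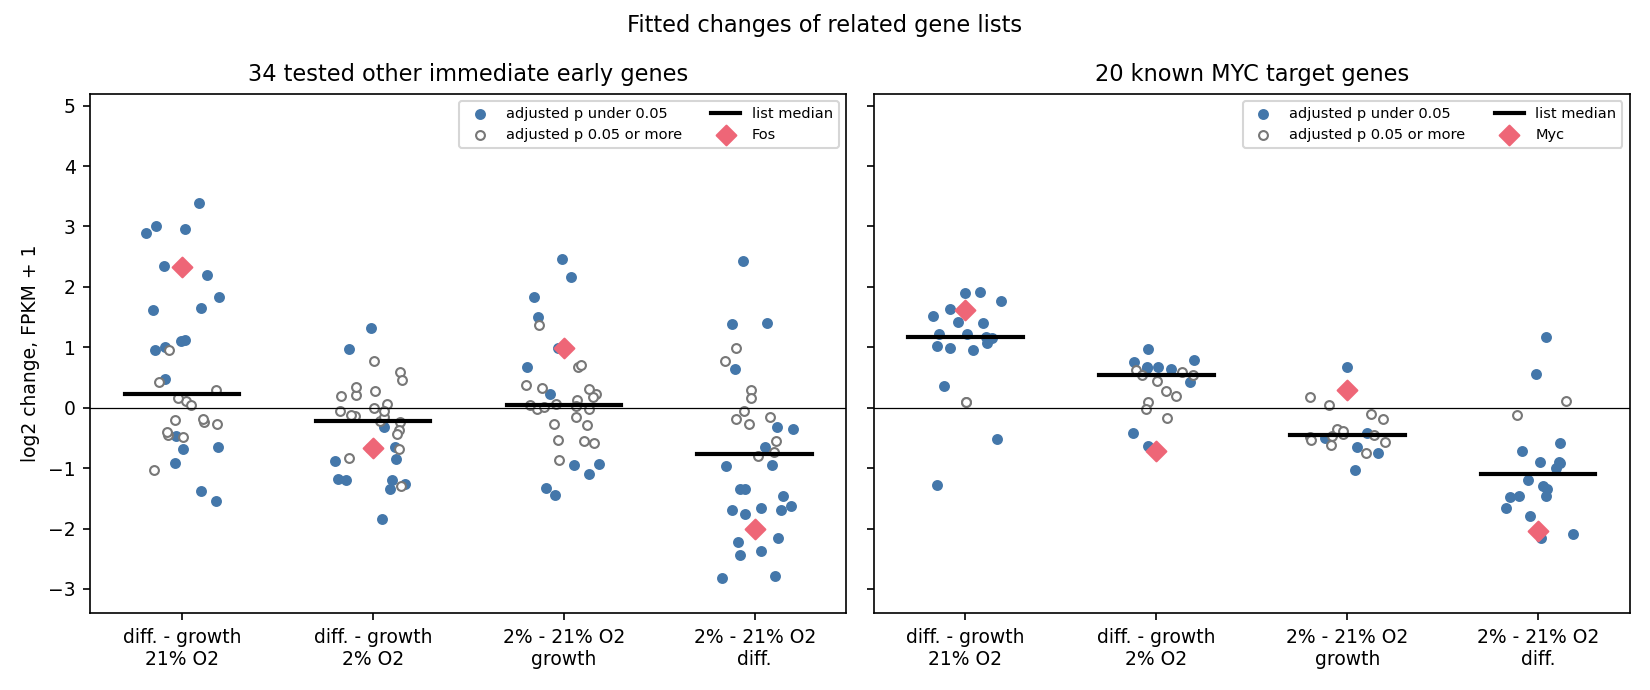
Fitted log2 changes of 34 tested other immediate early genes (left) and 20 known MYC targets (right) in 4 comparisons, with black bars for the list median and a diamond for Fos or Myc. Filled points have an adjusted p under 0.05. The MYC target median is 1.16 for differentiation in normoxia and -1.10 for hypoxia in differentiation medium, on the side of Myc. It lies opposite to Myc in the other 2 comparisons, but the Myc change with hypoxia in growth medium did not pass the threshold.

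The genes most like 5 of the members across the 8 libraries were taken from 7864 tested genes with a mean of at least 10 FPKM in their highest group, by Pearson's r of log2(FPKM + 1). The libraries come from 4 groups and share their condition, so r describes these 8 points. Mafk was closest to Fos (r = 0.993), Tubb6 to Atf3 (0.997), Trim16 to Myc (0.992), Mrps2 to Jun (0.988) and Pmm1 to Fosl1 (0.986). Next came Lman1l and Socs7 for Fos (0.963 and 0.962), Pak1ip1 and Pgam5 for Atf3 (0.996 and 0.994), Mustn1 and Dusp28 for Myc (0.991 and 0.989), Nasp and Srsf2 for Jun (0.983 and 0.981), and 9430015G10Rik and Ggta1 for Fosl1 (0.974 and 0.973). Mustn1 read 18.2 and 12.4 FPKM in normoxic growth, 240.1 and 228.1 in normoxic differentiation, 35.0 and 39.4 in hypoxic growth and 4.34 and 11.4 in hypoxic differentiation, the same order of groups as Myc.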

How the data were processed

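RNA was sequenced in 8 of the 24 samples; the 8 ChIP-seq and 8 input libraries are not analysed here. The deposited table holds FPKM per gene, which the authors made with STAR 2.5.1b and Cufflinks 2.2.1 on mm9, per the submitters' processing notes. The libraries were stranded total RNA, per the labels' protocols, while the annotation, the strand setting and the scaling between libraries are not given in the sources used here. Columns were matched to samples by name, with 0 left unmatched.

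The 12389 genes whose group mean reached 1 FPKM in any of the 4 groups were fitted with limma 3.58.1 (R 4.3.3, intensity trend) on log2(FPKM + 1), with 4 group means over 8 libraries (4 residual degrees of freedom) and Benjamini-Hochberg adjustment. The procedure was tested on simulated data. The alternatives were a pseudocount of 0.1, no filter, a filter of 5 FPKM, 2 other scalings, a replicate block, array weights, the compared libraries alone, and each library left out.

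The members and lists were chosen with earlier results of these data known. All members are named. From each list, values are given for at most the 3 genes with the largest called change in a comparison, and for Egr2, Nr4a1, Ier2, Klf4, Dusp1, Srf, Max, Mxd1, Mycn and Fbxw7 whatever their values. Marker genes, genes listed by an upper limit, and Cdk4 and Npm1 in normoxia were added after their values were seen. So were Atf7, Nab2, Dusp6 and Mycl with hypoxia in differentiation medium. FPKM give no count, so no interval or floor was computed. The result of 1 gene of the AP-1 target list is not reported here.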

Additional observations from a re-analysis of the deposited data

Results flagged for a closer look

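The response to differentiation medium differed between 2% and 21% oxygen for 7 of the 9 tested members, by limma's test of the difference itself. Over all genes 54.1% were called in the same test. The difference, on the log2(FPKM + 1) scale, was -2.99 for Fos (adjusted p = 0.00212), -2.34 for Myc (-2.335, adjusted p = 0.000417), -2.34 for Atf3 (-2.336, adjusted p = 0.00898), -1.37 for Egr1 (adjusted p = 0.0398), -0.80 for Fosl2 (adjusted p = 0.000886) and -0.59 for Junb (adjusted p = 0.0176). It was 0.56 for Jund (adjusted p = 0.0155). For Fos and Myc both differentiation libraries lay above the growth libraries at 21% oxygen and below them at 2%. The Fos change of medium at 2% oxygen did not pass limma's test (adjusted p = 0.157). The Egr1 call was lost under 8 of 15 alternatives, and the Jund call under both other scalings (adjusted p = 0.31 and 0.121) and without normoxic differentiation B or hypoxic growth A (adjusted p = 0.0632 and 0.0636). The Junb call was lost without normoxic differentiation A or hypoxic growth B (adjusted p = 0.0722 and 0.0694), while the Fos, Fosl2, Myc and Atf3 calls were kept under all 15.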

How the results depend on the processing

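With 2 libraries a group, precision rests on a pooled spread that the hypoxic differentiation pair widens, and FPKM carry no depth. On differentiation in hypoxia the compared libraries alone gave 2867 genes and 2 members, and single omissions 2503 to 6479 genes and 3 to 7 members. For hypoxia in growth medium they gave 7 members, as did array weights, and single omissions gave 2989 to 6831 genes and 2 to 8 members. The Fosl1 interaction was -0.27 with median-ratio and -0.18 with upper-quartile scaling, and from -0.63 to 0.69 over single omissions. Over single omissions the change of Atf3 with hypoxia in growth medium ran from -0.23 to 0.0056, that of Fosl2 on differentiation in hypoxia from -0.10 to 0.0019, and that of Jun with hypoxia in differentiation medium from -0.95 to 0.17. In each of these the cause was not tested, beyond the smaller number of libraries.

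Libraries with the same letter did not deviate together over the tested genes (correlations of -0.166 to 0.042 between groups). Such correlations cannot decide whether a letter marks a shared culture or batch, and the labels do not say. With a replicate block 7931, 4453, 4634, 7802 and 6273 genes passed in the 5 contrasts in the order of the report, with 5, 4, 4, 7 and 6 members. The block ended 3 member calls, Egr1 in the interaction (adjusted p = 0.0555), Junb on differentiation in hypoxia (adjusted p = 0.0591) and Jund on differentiation in normoxia (adjusted p = 0.0621).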
